A study of Homo sapiens with 9 samples.

Results

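The 9 genes described here store, take up and sense iron: FTH1 and FTL, TFRC, TFR2 and STEAP3, IREB2 and ACO1, with NCOA4 and HMOX1. They were taken by gene symbol, by a rule that uses no measured value although it was written with earlier results of these data known, out of 9221 symbols in the deposited tables, and all 9 had a value with both compounds. Ribosome-protected mRNA fragments were sequenced from Huh7 cells, a human hepatocellular carcinoma line, grown as 1 line with no change in iron supply named in the labels. The cells received 1.5 µM PF8503 (PF-06378503), 1.5 µM of the related compound PF846 (PF-06446846, with other spellings of the number in the sample labels) or 0.5% DMSO as vehicle, for 1 hr, with 3 libraries per condition and 9 in all. Cycloheximide was present in the rinse and in the lysis buffer of every condition. Only the authors' mean over the libraries of each condition was used, in read counts divided by size factors (normalized counts), so no replicate error, depth per library or test can be given for any difference below. According to the labels no sequencing lane held more than 1 condition, and effects of lane and of compound cannot be told apart.

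Cells take up iron by endocytosis of transferrin bound to the transferrin receptor TFRC, and a STEAP family reductase in the endosome reduces it for export to the cytosol. Ferritin, a shell of FTH1 heavy chains and FTL light chains, stores what is not used, and NCOA4 carries ferritin to the lysosome when iron is needed again. The iron regulatory proteins ACO1 (IRP1) and IREB2 (IRP2) sense the cytosolic pool. In iron shortage they bind hairpins in mRNAs, the iron-responsive elements. Binding in the 5' UTR blocks translation, as on the ferritin mRNAs, and binding in the 3' UTR protects the mRNA from decay, as on TFRC.

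These elements are shown first because they set FTH1, FTL and TFRC apart from the other members. The canonical transcripts of GENCODE version 44 (GRCh38, the build the authors used) were searched on the mRNA strand for a C, 5 bases, the loop CAGTGN and 5 bases that pair with the first 5, G-U pairs allowed. A match lay in the 5' UTR of FTH1 (chr11:61967574-61967602, reverse strand, exon 1, 155 bases before the start codon) and in that of FTL (chr19:48965335-48965363, forward strand, exon 1, 151 bases before it). Each is printed 5' to 3' with 6 bases on either side of the 17-base match and the loop in capitals.
FTH1: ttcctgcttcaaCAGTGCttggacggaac
FTL: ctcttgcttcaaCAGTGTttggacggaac

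TFRC had 4 matches, all in exon 19 and in its 3' UTR on chromosome 3 (reverse strand). They began 941, 1345, 1410 and 1457 bases after the stop codon. The first lay at chr3:196050979-196051007 and the last at chr3:196050463-196050491, and they are printed in the order of the mRNA.
TFRC first: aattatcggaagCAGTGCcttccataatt
TFRC second: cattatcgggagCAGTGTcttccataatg
TFRC next: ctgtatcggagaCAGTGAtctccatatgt
TFRC last: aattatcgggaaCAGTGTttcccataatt

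The other 6 members had no match to these letters in either UTR. Over the 9163 symbols with a canonical coding transcript, 12 transcripts (0.131%) held a match in the 5' UTR and 75 (0.819%) in the 3' UTR, and 3 (0.0327%) held 2 or more in the 3' UTR, TFRC among them. A match is a description of the sequence, and binding was not measured.

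Levels between genes are compared per codon. The vehicle mean was divided by the coding codons less 10 at each end, which the authors left out of their counts. FTH1 stood highest among the members with 25.9 normalized counts per codon, and FTL followed with 22.1, against a median of 0.870 over 9101 transcripts. TFRC came next with 11.8. NCOA4 (4.10), HMOX1 (2.63), ACO1 (2.45), IREB2 (1.96) and STEAP3 (1.50) formed the middle of the order. TFR2, the receptor of hepatocytes that takes part in hepcidin control, was lowest with 0.199 normalized counts per codon, and the density of TFRC was 59.5 times that of TFR2. Whether neighbours in this order differ beyond the spread between libraries could not be tested. The vehicle mean of the table for PF846 gives the same order. It comes from the same libraries and codons at another scale, so this is no separate check. Coding lengths are those of GENCODE version 44, and the authors' transcript of a gene may differ. Where reads were counted only 3' of the codon of largest cumulative difference from vehicle, fewer codons were counted and the density given is too low.

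**Figure D1:**
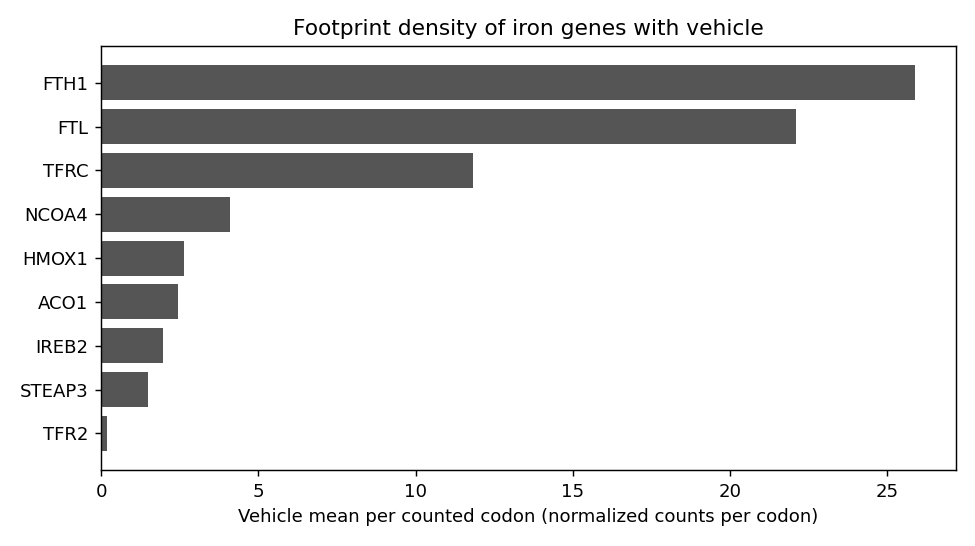
Vehicle mean of the 9 iron genes per counted codon, in normalized counts per codon, as bars from 0, without error since single libraries were not used. FTH1 (25.9), FTL (22.1) and TFRC (11.8) stand above the other 6 genes, which lie at 4.10 or less.

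FTH1 (ENSG00000167996, chromosome 11, 61959718 to 61967634, 183 codons) encodes the ferritin heavy chain, which carries the ferroxidase activity. Its mean was 4217 normalized counts with vehicle and 4934 with PF8503 in the table for PF8503, and 3860 with vehicle and 4155 with PF846 in the table for PF846. The tables were scaled separately, so means are compared within a table. The mean with compound was above the mean with vehicle in both, by 17.0% with PF8503 and 7.64% with PF846, or 0.23 and 0.11 on the log2 scale. Both comparisons rest on the same vehicle libraries. In these bulk libraries, a difference in every cell and a larger one in some cells cannot be told apart. Nor can more mRNA and more ribosomes per mRNA, because mRNA itself was not measured.

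FTL (ENSG00000087086, chromosome 19, 48965309 to 48966879, 175 codons) encodes the ferritin light chain, which helps to form the mineral core. Its mean was 3424 normalized counts with vehicle and 4313 with PF8503, a difference of 26.0% or 0.33 on the log2 scale. In the table for PF846 the means were 3134 and 3347, a difference of 6.78% or 0.095 on the log2 scale. FTL was the highest of the 9 genes by log2 ratio with PF8503. GENCODE version 44 names 25 pseudogenes of FTH1 and 16 of FTL, and reads from these near copies cannot be told apart from ferritin reads where the sequences are identical.

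NCOA4 (ENSG00000266412, chromosome 10, 46005088 to 46030623, 614 codons), the receptor for ferritin breakdown, lay next to its vehicle mean with both compounds. Its mean was 2433 normalized counts with vehicle and 2429 with PF8503, and 2227 with vehicle and 2210 with PF846. The log2 ratios were -0.0027 and -0.011.

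TFRC (ENSG00000072274, chromosome 3, 196012511 to 196082153, 760 codons) encodes the transferrin receptor. Its mean was 8746 normalized counts with vehicle and 7092 with PF8503, a difference of -18.9%, or -0.30 on the log2 scale. In the table for PF846 the means were 8006 and 7113, a difference of -11.2%, or -0.17 on the log2 scale. TFRC was the lowest of the 9 genes by log2 ratio with both compounds, opposite in sign to both ferritin chains.

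STEAP3 (ENSG00000115107, chromosome 2, 119223831 to 119265652, 498 codons) encodes the endosomal ferrireductase. Its mean was 719 normalized counts with vehicle and 809 with PF8503, and 658 with vehicle and 744 with PF846. The log2 ratios of 0.17 and 0.18 were nearly equal, and STEAP3 was the highest of the 9 genes with PF846. TFR2 (ENSG00000106327, chromosome 7, 100620416 to 100642779, 801 codons) had the fewest counts. Its mean was 155 normalized counts with vehicle and 152 with PF8503, and 142 with vehicle and 135 with PF846, with log2 ratios of -0.032 and -0.072.

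The iron sensors lay near their vehicle means. IREB2 (ENSG00000136381, chromosome 15, 78437431 to 78501453, 963 codons), whose protein is degraded when iron is plentiful, had a mean of 1852 normalized counts with vehicle and 1795 with PF8503, and of 1695 with vehicle and 1706 with PF846. ACO1 (ENSG00000122729, chromosome 9, 32384603 to 32454769, 889 codons), which is an aconitase while it holds an iron-sulfur cluster, had 2128 with vehicle and 2131 with PF8503, and 1948 with vehicle and 1979 with PF846. The log2 ratios were -0.045 and 0.0093 for IREB2 and 0.0019 and 0.022 for ACO1, in the order PF8503, PF846. HMOX1 (ENSG00000100292, chromosome 22, 35380361 to 35394214, 288 codons), the inducible haem oxygenase that frees iron from haem, had a mean of 706 normalized counts with vehicle and 745 with PF8503. With PF846 its mean was 651 against 646 with vehicle. The log2 ratios of HMOX1 were 0.078 and 0.012.

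**Figure D2:**
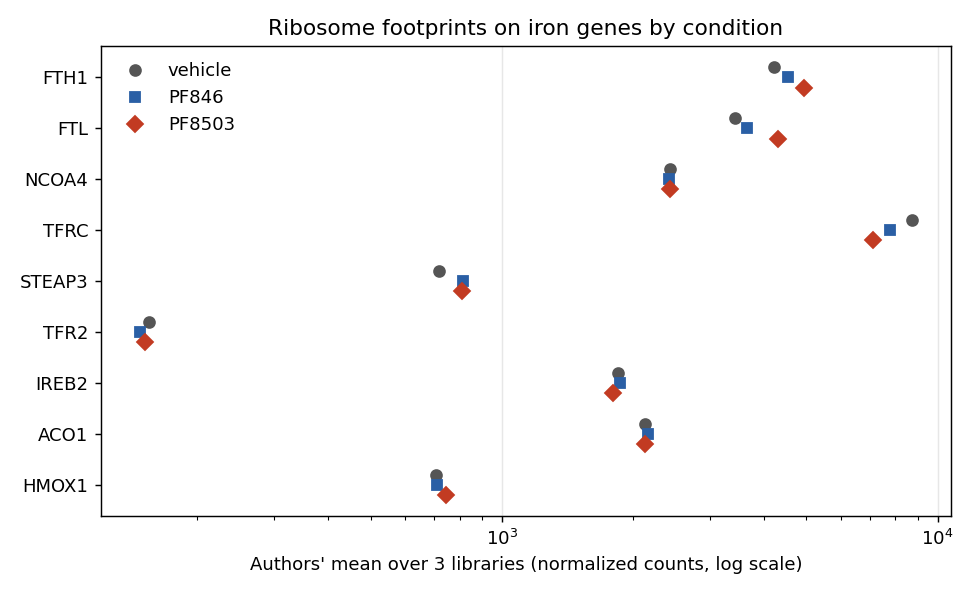
Authors' mean of each condition over 3 libraries for the 9 iron genes, in normalized counts on a log axis, with circles for vehicle, squares for PF846 and diamonds for PF8503. The PF846 means were brought to the scale of the PF8503 table with the ratio of the vehicle means, 1.09. On this scale TFRC stands at 8746 with vehicle, 7771 with PF846 and 7092 with PF8503, while FTL stands at 3424, 3656 and 4313 in the same order.

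A log2 ratio of 0.25 in either direction, which is 1.19-fold, was used to count differences. With PF8503, 2 of the 9 genes were past it, FTL above and TFRC below, where 8.02% of the 9157 transcripts of the table were past it, 3.79% above and 4.23% below. With PF846, 0 of the 9 genes were past it, against 3.79% of 8839 transcripts, 1.66% above and 2.13% below. No replicated test stands behind these counts, and with 9 genes a difference of 1 gene moves the share widely. At 0.1, 4 of the 9 genes were past with PF8503 and 3 with PF846, against 39.1% and 26.9% of all transcripts. At 0.5, 0 were past with either compound, against 1.32% and 0.475%. The median log2 ratio of the 9 genes was 0.0019 with PF8503 and 0.012 with PF846, beside 0.013 and 0.00086 over all transcripts. As a group the 9 genes were thus near the centre of each table, and the larger ratios lay in FTH1, FTL, TFRC and STEAP3.

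The place of these 4 genes in the tables shows how common such ratios were. With PF8503, 1.31% of transcripts had a higher log2 ratio than FTL, 4.97% a higher one than FTH1 and 9.54% a higher one than STEAP3, and 2.90% had a lower one than TFRC. With PF846, 14.3% were higher than FTL, 11.8% higher than FTH1 and 4.50% higher than STEAP3, and 5.22% were lower than TFRC. Transcripts with few reads scatter more, so the same was done over transcripts with a vehicle mean of at least 1000 normalized counts, a choice made after the values were seen. Of the 2173 such transcripts with PF8503, 0.0920% were higher than FTL, 0.874% higher than FTH1 and 2.35% lower than TFRC. Of the 2017 with PF846, 5.30% were higher than FTL, 3.82% higher than FTH1 and 1.54% lower than TFRC. These shares describe the position in a table and are not p-values.

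**Figure D3:**
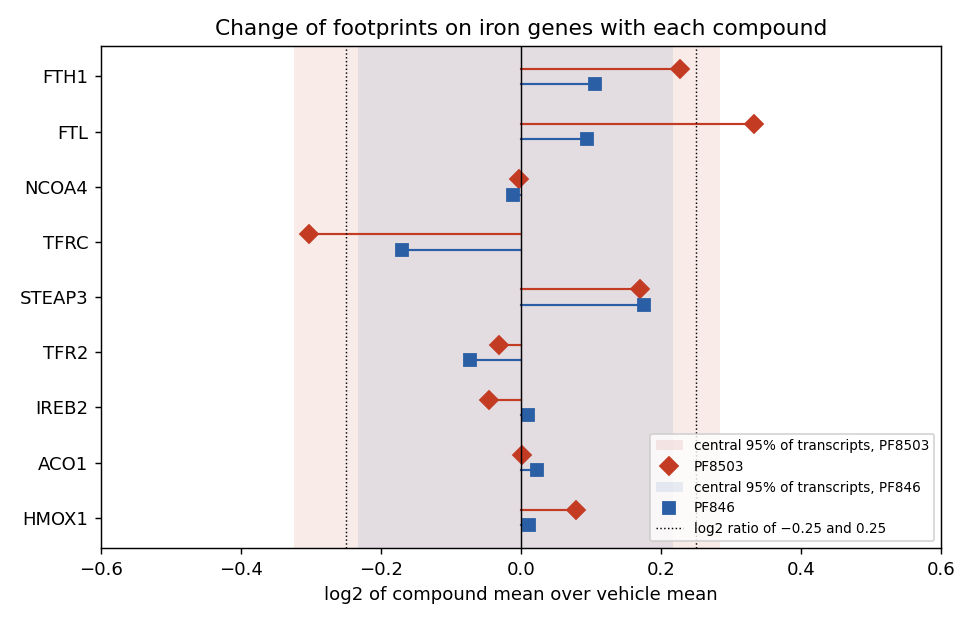
Log2 ratio, compound mean to vehicle mean, of the 9 iron genes, with diamonds for PF8503 and squares for PF846; the shaded bands hold the central 95% of all transcripts of each table (-0.32 to 0.28 and -0.23 to 0.22) and the dotted lines mark 0.25 in either direction. FTL with PF8503 (0.33) lies outside its band, TFRC lies below 0 with both compounds, and NCOA4 and ACO1 lie within 0.05 of 0.

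**Figure D4:**
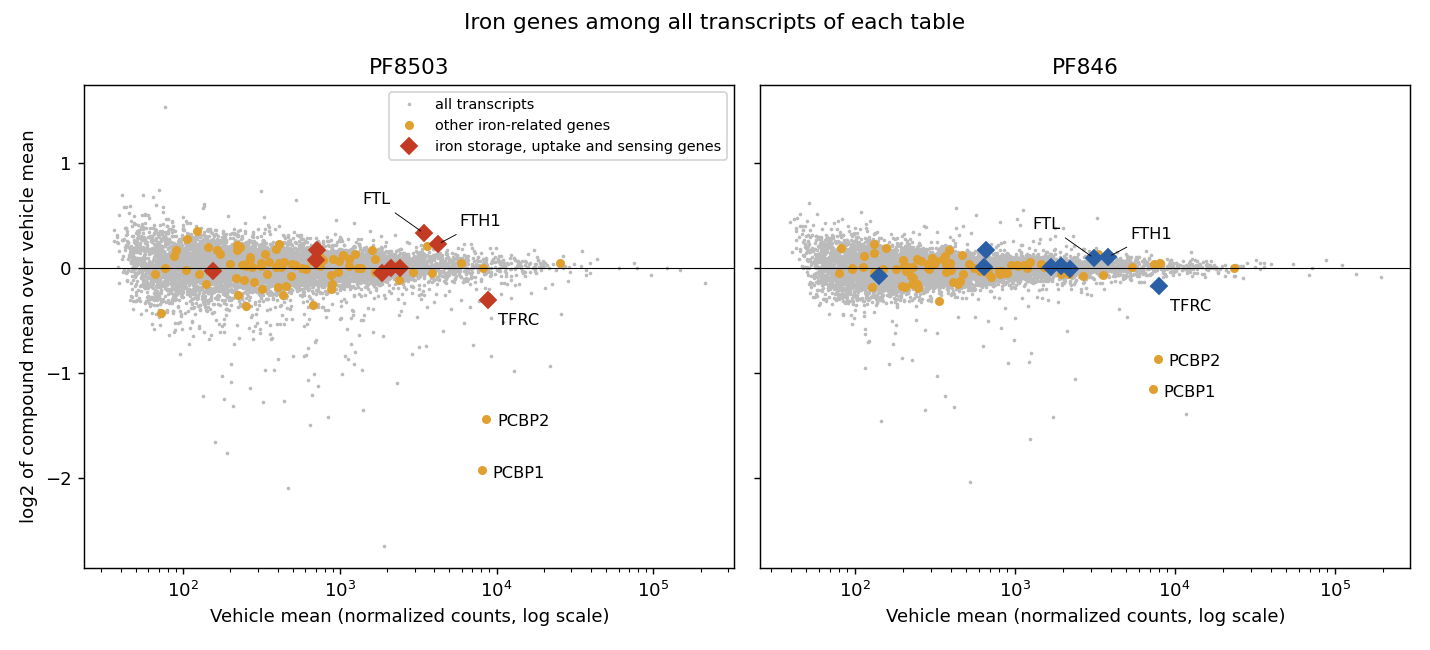
Log2 ratio, compound mean to vehicle mean (vertical axis), against the vehicle mean in normalized counts (horizontal log axis) for every transcript of each table, with the 9 iron genes as diamonds and the other iron-related genes as circles. The scatter narrows as the mean grows, FTL and TFRC lie at the upper and lower edge of it with PF8503, and PCBP1 (-1.92 and -1.15) and PCBP2 (-1.43 and -0.86) lie far below it.

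Differences between the compounds at the same dose and time can be read without the vehicle. For all 9 genes the vehicle mean in the table for PF8503 was 1.09 times that in the other, to within 0.002 on the log2 scale, as for 98.5% of the 8775 transcripts in both tables. The same codons were therefore counted, and the vehicle cancels in the difference of the log2 ratios. FTL was 0.24 and FTH1 0.12 higher with PF8503 than with PF846, and TFRC differed by -0.13. Over all transcripts in both tables, 3.77% had a higher difference than FTL, 16.6% a higher one than FTH1 and 11.2% a lower one than TFRC. The central 95% of differences lay between -0.30 and 0.27. The other 6 genes differed by -0.055 to 0.067. Past 0.25 were 0 of the 9 genes, against 6.6% of transcripts. No interval can be given for these differences, so they show neither that the compounds act alike on a gene nor that they differ.

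Ratios of densities within a condition do not depend on a scaling shared by the libraries of that condition. FTH1 stood at 1.17 times FTL with vehicle, 1.18 times with PF846 and 1.09 times with PF8503. TFRC stood at 0.457 of FTH1 with vehicle, 0.377 with PF846 and 0.317 with PF8503. Against FTL it stood at 0.535, 0.445 and 0.344 in the same order. The balance of receptor to ferritin footprints was thus lowest with PF8503 and intermediate with PF846, with the spread between libraries unknown. It restates the log2 ratios of these genes given above and is no separate result.

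A match to the element in the 5' UTR was also found in SLC40A1, which encodes the iron exporter ferroportin. It lies at chr2:189580661-189580689 (reverse strand, exon 1, 207 bases before the start codon) and is printed as above, to be set beside those of the ferritin chains.
SLC40A1: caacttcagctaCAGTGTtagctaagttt

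SLC40A1 had few reads. Its mean was 106 normalized counts with vehicle and 128 with PF8503, and 97.0 with vehicle and 96.5 with PF846, with log2 ratios of 0.28 and -0.0077. FTH1, FTL and SLC40A1 were thus all above vehicle with PF8503, where 54.7% of all transcripts were, and with PF846, where 50.3% were, SLC40A1 was not. The transcripts with such a match outside the iron lists were ADAR, ADGRD1, DUSP9, ENC1, F10, PRPF18, SLC4A4 and ZER1. These 8 had a median of 0.076 with PF8503 and of 0.0081 with PF846, with 6 and 5 of them above vehicle. Their log2 ratios with PF8503 ran from -0.19 to 0.17. Besides TFRC, the transcripts with 2 or more matches in the 3' UTR were GPI and TMEM8B, with log2 ratios of 0.038 and 0.27 with PF8503 and 0.0063 and 0.15 with PF846.

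Ferritin receives its iron from the cytosolic chaperones PCBP1 and PCBP2, poly(C)-binding proteins that also bind RNA. PCBP1, which was counted over a slightly different region in each table, had a mean of 8066 normalized counts with vehicle and 2128 with PF8503, and 7316 with vehicle and 3289 with PF846. PCBP2 had 8575 with vehicle and 3181 with PF8503, and 7849 with vehicle and 4314 with PF846. The log2 ratios were -1.92 and -1.15 for PCBP1 and -1.43 and -0.86 for PCBP2. The ratio for either chaperone was far larger in size than that of any of the 9 members. On some transcripts the authors counted reads only 3' of the codon of largest cumulative difference from vehicle, a region chosen from these data. The ratios of the chaperones and of the members may therefore cover unlike parts of the coding sequence. Which region was counted for PCBP2 cannot be read from the means.

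Other iron-related genes were followed in 7 lists. Of their 103 genes, 82 were in the table for PF8503 and 80 also in that for PF846. With PF8503, 10 of the 82 (12.2%) were past a log2 ratio of 0.25, 2 above and 8 below, and with PF846 3 of the 80 (3.75%), all below. The median of the lists was 0.018 with PF8503 and -0.0016 with PF846. Among all transcripts the shares were 8.02% and 3.79%. The 10 genes include MTTP, which was listed in error, and LYRM4, which was counted over different regions, and no excess over the background is read from these counts.

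Among 11 genes of iron import, export and reduction, SLC40A1 alone was past the threshold with PF8503, and 0 were with PF846. Of all transcripts, 8.02% and 3.79% were past it. The gene with the highest density of this list was TF, the plasma iron carrier transferrin, with 37.7 normalized counts per codon with vehicle and log2 ratios of 0.044 and -0.0031. SLC39A14, a zinc and iron importer of the liver, had 12.5 normalized counts per codon and log2 ratios of 0.049 and 0.0057. Of 10 genes listed as liver iron regulators, 3 were below vehicle by the threshold with PF8503, and 0 of the 9 of them listed for PF846. Over all transcripts, 4.23% and 2.13% were below by it. The 3 include MTTP, and with so few genes no excess is read from the count. BMPR2, a receptor of bone morphogenetic proteins, had log2 ratios of -0.26 and -0.18, and SMAD4, their shared signal transducer, had -0.26 and 0.044. MTTP, also below, had -0.28 and 0.046; it loads lipid onto lipoproteins, is no known iron regulator and was placed on the list in error. HAMP, HJV and TMPRSS6, which make or control hepcidin in the liver, were not listed in either table.

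Among 18 genes of mitochondrial iron handling and iron-sulfur cluster assembly, 1 was above and 2 were below the threshold with PF8503. With PF846, 0 were past it. Of all transcripts, 3.79% were above and 4.23% below with PF8503, and 3.79% were past it in either direction with PF846. FDXR, the ferredoxin reductase, had log2 ratios of 0.36 and 0.0067, at a vehicle mean of 123 normalized counts. LYRM4, which stabilises the cysteine desulfurase, had -0.43 and 0.23, but a shorter region was counted in the table for PF8503, with a vehicle mean of 72.4 normalized counts against 132, so its ratios cover different codons. Among 9 genes of cytosolic iron-sulfur assembly, MMS19, which hands clusters to DNA enzymes, had -0.35 with PF8503 and -0.0013 with PF846. NUBP2, a scaffold of this pathway, had 0.18 and -0.31, again over different regions.

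Of the 16 genes of haem synthesis, transport and breakdown, 0 were past the threshold with either compound, beside 8.02% and 3.79% of all transcripts. With PF8503 their log2 ratios ran from -0.0018 to 0.13 (median 0.048), and with PF846 from -0.16 to 0.17 (median -0.0015). PGRMC1, a haem-binding membrane protein, and BLVRB, a biliverdin reductase, were densest, with 9.57 and 6.16 normalized counts per codon with vehicle. Their log2 ratios were 0.086 and 0.018 with PF8503 and 0.0093 and 0.023 with PF846. NRF2, a transcription factor of the oxidative stress response, induces HMOX1 and both ferritin genes. None of its 12 listed pathway genes, regulators and targets together, was past the threshold with PF8503, nor any of the 11 listed for PF846. Of all transcripts, 8.02% and 3.79% were, so a count of 0 in a list of this size says little. The medians were -0.019 and -0.0010, and a part of NRF2 in the ferritin ratios was not tested. The log2 ratios of these genes ran from -0.17 to 0.22 with PF8503 and from -0.13 to 0.14 with PF846. NQO1 and GCLM, targets with the highest densities of the list, had -0.042 and -0.042 with PF8503 and -0.063 and 0.016 with PF846. OSGIN1 and SRXN1, also targets, lay highest with PF8503, with 0.22 and 0.20, and had 0.017 and 0.14 with PF846.

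**Figure D5:**
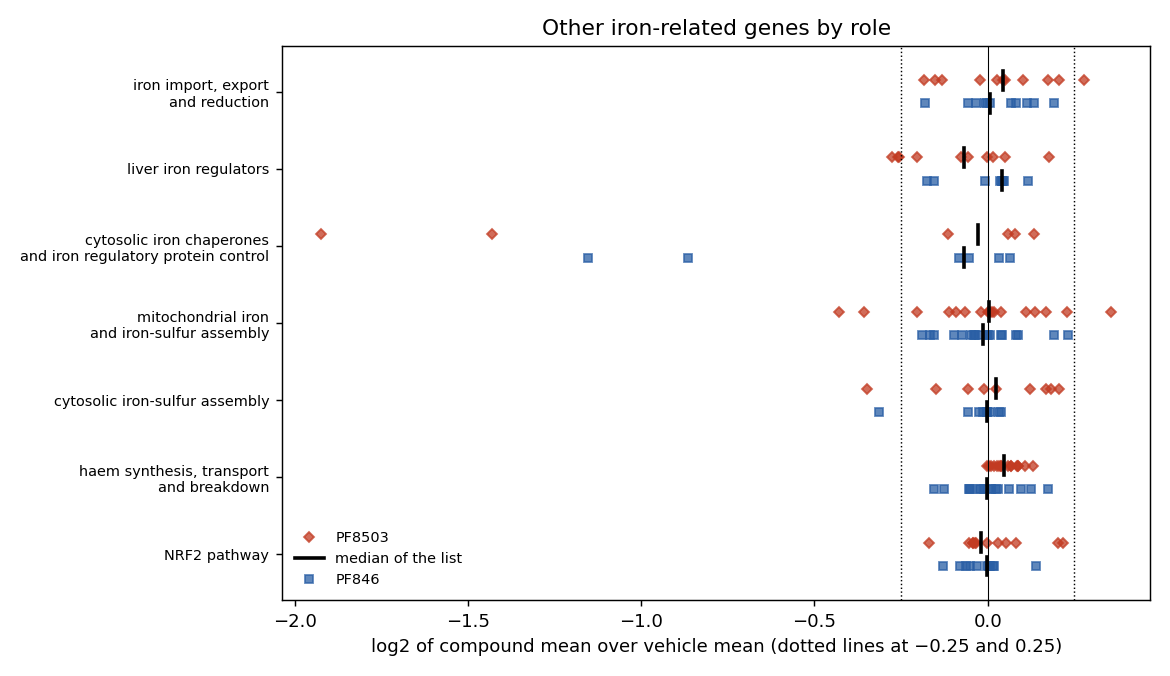
Log2 ratio, compound mean to vehicle mean, of the 82 other iron-related genes in 7 lists by role, with diamonds for PF8503, squares for PF846, a black bar at the median of each list and dotted lines at 0.25 in either direction. PCBP1 and PCBP2 lie apart at -0.86 and below with both compounds, and the haem genes lie between -0.16 and 0.17.

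The cells carried the marks of hepatocytes. All 8 hepatocyte genes checked were listed, from 1296 normalized counts with vehicle for SERPINA1 to 212970 for AFP, the fetal albumin-like protein, and summed to 4.98% of the vehicle total. Of 7 genes of other cell types, CD68 (889) and PECAM1 (170) were listed, and PTPRC, HBB, HBA1, COL1A1 and COL1A2 were not. The vehicle means summed over transcripts to 10521744 normalized counts in the table for PF8503 and 9627557 in that for PF846. The vehicle means of the 9 genes lay between 155 and 8746 in the former and between 142 and 8006 in the latter.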

How the data were processed

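Per the study's methods, adapters were trimmed (FASTX), ribosomal RNA reads removed (Bowtie) and the rest aligned to canonical coding transcripts (GENCODE version 24, GRCh38) and reads with a single position kept. Reads were counted 3' of DMax, the codon of largest cumulative difference from vehicle, if that codon had a Z score of 2 or more; elsewhere the first 10 codons were left out. The last 10 codons were always left out, and transcripts needed over 30 counts. The authors deposited signal values that average, over the libraries of a condition, counts divided by DESeq size factors; tool versions are not given in the sources used here. The deposited columns of fold changes and p-values hold the authors' own comparison and were not used.

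Here the log2 ratio of the compound mean to the vehicle mean was computed for every transcript, without a pseudocount. The vehicle column was identified as the condition that stands at a constant ratio between the tables. No model could be fitted, since values of single libraries were not used. Differences were counted at a log2 ratio of 0.25. All 9 members were named, and from each of the other lists the genes past this threshold or, where there were none, the 2 of highest density; any other gene was picked with its values in view. Some genes that this rule would name are not reported here. The members and lists were chosen with earlier results of these data known. Of 9221 symbols, 9163 (99.4%) were matched to a canonical coding transcript of GENCODE version 44. The steps were run on simulated means without count noise and on planted sequences, which checks the code and not the counts under noise. Alternatives were other thresholds, centring, rescaling, a pseudocount of 10, a minimum mean of 100, other densities and stricter base pairing. Python 3.11.15, numpy 2.4.6, pandas 2.3.3 and matplotlib 3.10.9 were used.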

Additional observations from a re-analysis of the deposited data

How the results depend on the processing

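No paired analysis was possible because the deposited columns are means over the libraries of a condition and carry no replicate number, and for the same reason no library could be left out. With PF8503 the count of members past the threshold was 4 at a threshold of 0.1 and 0 at 0.5, and with PF846 it was 3 at 0.1. Centring, rescaling to the sum of all transcripts, a pseudocount of 10 and a minimum mean of 100 normalized counts kept the counts at 2 and 0. The minimum mean left out no member, so it could not change them. Centring and rescaling shift all ratios of a table by the same small amount. FTH1 with PF8503, nearest to the threshold, went from 0.227 to 0.214 centred and 0.231 rescaled. The unchanged counts are therefore weak support. Centring moved the median of the members with PF8503 to -0.011. Of 54 ratios of single members under centring, rescaling and the pseudocount, 52 kept their sign and side of the threshold; ACO1 (-0.011, centred) and NCOA4 (0.0020, rescaled), both with PF8503, changed sign near 0. Among the 82 other iron-related genes, 2 were past a threshold of 0.5 with PF8503, PCBP1 and PCBP2, against 1.32% of all transcripts. The same 2 of 80 were past it with PF846, against 0.475%. Without MTTP, left out after the values were seen, 9 were past 0.25 with PF8503. With Watson-Crick pairs alone, 1 member, TFRC, kept an iron-responsive element match, since those of FTH1 and FTL each contain 1 G-U pair. Differences of the size seen here cannot be set against replicate error, and ratios of TFR2, SLC40A1 and other genes with few reads are the least certain.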
